A study of Mus musculus with 8 samples.

Results

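The platelet-derived growth factor (PDGF) family was followed in mouse cells exposed to auranofin, a gold compound used against rheumatoid arthritis, and covers the 4 ligand genes Pdgfa, Pdgfb, Pdgfc and Pdgfd and the 2 receptor genes Pdgfra and Pdgfrb. These 6 genes were taken by their symbols from the 18645 genes listed for activated hepatic stellate cells (HSC) and the 17408 genes listed for bone marrow-derived macrophages (BMDM), and all 6 were listed in both. The study exposed these cells to auranofin because activated HSC and macrophages drive liver fibrosis, and RNA was sequenced from 8 libraries, 2 per group. In the first experiment, HSC from the livers of C57BL/6 mice, described as activated, received vehicle (the labels read untreated) or auranofin at 0.03 µM during 12 h. In the second, BMDM grown with macrophage colony-stimulating factor (M-CSF) from the bone marrow of C57BL/6 mice 8 weeks old received 100 ng/ml LPS and 1 mM ATP in both groups, alone or with 0.1 µM auranofin by the labels (0.3 µM by the paper) for 1 h. No BMDM library without LPS and ATP was analysed here. The HSC were separated from other liver cells by density alone, and nothing states that the replicates of a group came from separate animals or cultures, so p-values measure only the spread between these samples, which may be technical.

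PDGF ligands are secreted as pairs of chains. The A and B chains leave the cell ready to bind, whereas the C and D chains leave it in a latent form and need a protease to cut off a domain that masks them. PDGF receptor α, encoded by Pdgfra, binds the A, B and C chains, and PDGF receptor β, encoded by Pdgfrb, binds the B and D chains; both are receptor tyrosine kinases. In the liver, PDGF is a strong mitogen and chemoattractant for HSC as they turn into myofibroblasts, and macrophages and platelets are known sources of the B chain.

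In mm10, the mouse genome build of both tables, Pdgfa lies on chromosome 5 from 138976014 to 139000792 and Pdgfra on the same chromosome from 75151322 to 75198206. Pdgfb lies on chromosome 15 from 79995865 to 80024614, Pdgfc on chromosome 3 from 81036416 to 81214040 and Pdgfd on chromosome 9 from 6168363 to 6534284. The tables give a single RefSeq transcript each for the 4 ligands, 5 for Pdgfra and 2 for Pdgfrb.

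The DNA just before the transcription start is shown for the 3 ligands whose HSC libraries separated by treatment, Pdgfa, Pdgfc and Pdgfd. RefSeq promoter windows (GRCm38.p6, the assembly of mm10) matched 4 of the 6 genes, and each stretch ends where an annotated exon or the gene itself begins. For Pdgfa it precedes the transcript used in the tables and lies inside the wider span of the gene. Capitals mark matches to 1 of 5 motifs searched on both strands: the GC box (GGGCGG), the TATA box (TATAAA), the AP-1 element (TGANTCA), the core of the antioxidant response element (TGACNNNGC) and the CArG box, the site of serum response factor.
Pdgfa, chr5:138995038-138995194, minus strand: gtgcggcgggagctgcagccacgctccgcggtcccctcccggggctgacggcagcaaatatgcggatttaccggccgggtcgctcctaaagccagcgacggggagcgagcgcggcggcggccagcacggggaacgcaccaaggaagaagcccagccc
Pdgfc, chr3:81036166-81036415, plus strand: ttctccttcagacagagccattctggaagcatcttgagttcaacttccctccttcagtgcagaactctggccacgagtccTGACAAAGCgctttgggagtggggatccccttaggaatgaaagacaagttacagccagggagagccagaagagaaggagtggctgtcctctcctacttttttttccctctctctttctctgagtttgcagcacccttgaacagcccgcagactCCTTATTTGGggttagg
Pdgfd, chr9:6168236-6168362, plus strand: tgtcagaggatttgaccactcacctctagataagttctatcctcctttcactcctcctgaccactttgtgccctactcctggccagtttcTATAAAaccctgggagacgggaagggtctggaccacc
The Pdgfc stretch of 250 bases held a match to the antioxidant response element core from its base 81, as did 10.2% of all 32851 windows over the same bases, and a CArG box from base 234, as did 1.47%. The Pdgfd stretch of 127 bases held a TATA box from base 91, as did 6.32% of windows over the same bases. The Pdgfa stretch of 157 bases, of which 72% were G or C, held none of the 5 motifs; over the same bases, 17.6% of windows held a GC box, 7.55% a TATA box, 5.62% the antioxidant response element core, 4.24% an AP-1 element and 0.84% a CArG box. No matches overlapped, and none of these motifs was shared by the 3 stretches.

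Both receptors and all 4 ligands were detected in the HSC libraries, which also held RNA of other cell types, as described below. Levels are FPKM, fragments scaled to transcript length and library size, so that genes can be set beside each other. Pdgfrb was the highest of the family in each of the 4 libraries, at 50.6 and 51.5 FPKM with vehicle. Its mean over the 4 libraries lay above that of 92.4% of the genes listed. Pdgfa followed at 30.9 and 27.6 FPKM and Pdgfra at 20.2 and 19.4 FPKM. These 3 places in the order were the same in all 4 libraries. Pdgfc (11.6 and 12.4 FPKM) and Pdgfb (11.6 in both) lay side by side, with Pdgfc ahead in both vehicle libraries by less than 1 FPKM and Pdgfb ahead in both auranofin libraries. Pdgfd was the lowest, at 7.63 and 7.91 FPKM. Receptor β transcripts exceeded receptor α transcripts 2.51- and 2.65-fold with vehicle and 2.32- and 2.35-fold with auranofin.

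In BMDM 3 ligands were above 1 FPKM, and the receptors were low. Pdgfb had 10.3 and 10.2 FPKM with LPS and ATP alone and made up 54.4% and 55.4% of the ligand sum, ahead of Pdgfa at 6.23 and 5.94 FPKM and Pdgfc at 2.36 and 2.30 FPKM. Pdgfd was listed at 0 in all 4 libraries, where a single fragment would have given between 0.016 and 0.02 FPKM. Pdgfra had 0.0748, 0.0295, 0.0629 and 0.160 FPKM and Pdgfrb 0.355, 0.313, 0.0680 and 0.359 FPKM, vehicle libraries first. For Pdgfrb these values stand for an estimated 57.1, 47.0, 12.8 and 66.5 fragments, so that it was detected in all 4 libraries, and its mean lay above 36.5% of the genes listed. For Pdgfra the estimate depends on which of its 5 transcripts was read and was as low as 1.3 to 5.6 fragments in vehicle replicate 2. The 2 tables were normalized separately and the cells differ in dose and time, so their levels are set side by side only. Vehicle means in HSC and BMDM were 51.0 and 0.334 FPKM for Pdgfrb, 19.8 and 0.0522 FPKM for Pdgfra, 29.2 and 6.09 FPKM for Pdgfa and 11.6 and 10.2 FPKM for Pdgfb.

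**Figure D1:**
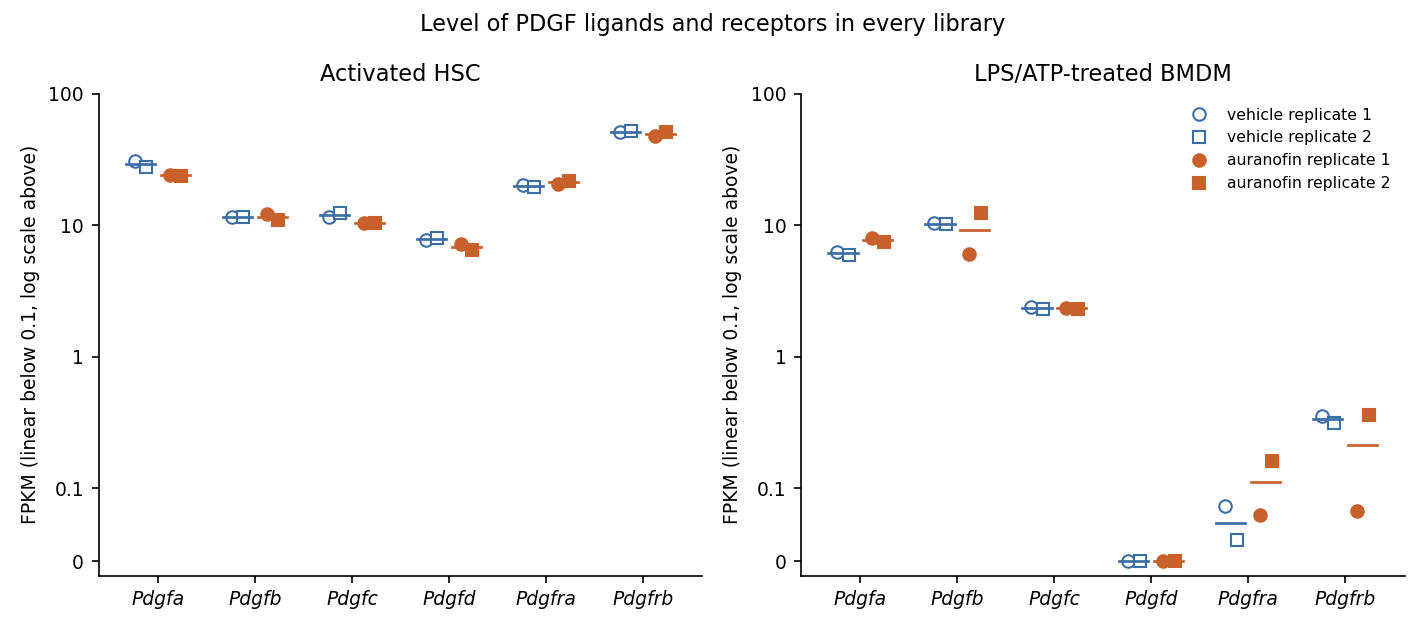
Level in FPKM (linear below 0.1, log scale above) of each PDGF ligand and receptor in the 4 HSC libraries (left) and 4 BMDM libraries (right); open symbols are vehicle, filled symbols auranofin, and lines are group means of 2 libraries. All 6 genes lie above 6 FPKM in HSC, whereas in BMDM Pdgfd is listed at 0 and both receptors lie below 0.4 FPKM.

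The labels of the cells were checked against marker lists. The HSC libraries expressed the myofibroblast genes Acta2 (956 and 965 FPKM with vehicle) and Col1a1 (1001 and 1075 FPKM) and the stellate cell gene Des (50.6 and 55.1 FPKM), but Gfap, another stellate cell marker, did not exceed 0.0468 FPKM. The HSC libraries also held macrophage transcripts: 13 of the 14 macrophage markers had a mean of at least 1 FPKM, and their sum was 9324 to 9417 FPKM. The largest part of that sum was Lyz2, with a vehicle mean of 5536 FPKM in HSC and 3684 FPKM in BMDM. Adgre1 and 4 other general macrophage genes were lower in HSC than in BMDM, with vehicle means of 109 and 409 FPKM for Adgre1, 658 and 1800 FPKM for Cd68, 686 and 2821 FPKM for Ctss, 46.2 and 471 FPKM for Cd14 and 4.37 and 335 FPKM for Fcgr1. Some genes known from the resident macrophages of the liver were higher in HSC, with 1486 and 110 FPKM for Cd5l, 256 and 0.682 FPKM for Vsig4 and 58.9 and 0.0140 FPKM for Clec4f. Timd4, another such gene, was low in both, at 0.589 and 0.530 FPKM. Of the remaining macrophage markers, Mrc1 (87.6 and 56.6 FPKM) and Marco (411 and 16.9 FPKM) were higher in HSC, and Itgam and Ptprc lower. All 11 endothelial markers had a mean of at least 1 FPKM, with a sum of 349 to 378 FPKM, while hepatocyte markers summed to at most 1.68, platelet markers to at most 3.07 and lymphocyte markers to at most 0.0221 FPKM. The HSC libraries thus held RNA of several cell types, and which cells held each transcript was not tested. In BMDM the endothelial sum was at most 5.14 FPKM and the sum of smooth muscle and portal fibroblast markers at most 1.24 FPKM, while the stellate cell markers summed to 31.7 to 72.0 FPKM. Most of the latter was Lhx2, a transcription factor gene at 52.7 and 51.5 FPKM in the BMDM vehicle libraries and 3.09 and 2.91 FPKM in those of HSC.

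In HSC, auranofin was compared with vehicle for each member within a fit over all genes. The ligands Pdgfa, Pdgfc and Pdgfd had lower values in both auranofin libraries than in both vehicle libraries, with means 12.5% to 18.2% lower, and the receptors moved less, but no member passed the test. Of the 12149 genes tested with limma, 283 (2.33%) had a Benjamini-Hochberg adjusted p under 0.05, 151 higher and 132 lower with auranofin; none of the 6 members was among them, and 3 had an unadjusted p under 0.05, as did 2161 of all genes. At an unadjusted p under 0.05 with a change of 1.5-fold or more, 70 genes (0.576%) passed and again no member did. Both auranofin libraries lay below both vehicle libraries in 23.9% of all genes and above them in 26.2%. The members were 3 below, 1 above and 2 overlapping.

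Pdgfa, the A chain, had the clearest difference, with 30.9 and 27.6 FPKM under vehicle, compared with 24.2 and 23.7 FPKM under auranofin. The groups did not overlap, and the vehicle libraries lay further apart than the auranofin ones. The mean was 29.2 ± 2.31 FPKM (SD, n = 2) against 23.9 ± 0.357 FPKM (SD, n = 2). Its log2 fold change, computed on log2(FPKM + 1) as throughout, was -0.28 (SE 0.059, 95% interval -0.42 to -0.13), with a limma adjusted p of 0.0830. Without vehicle replicate 2, the lower of the vehicle libraries, the log2 fold change was -0.36 and the limma adjusted p 0.00941, so whether Pdgfa was called depended on this library. With 2 libraries a side, the smallest two-sided p of an exact permutation test is 0.333, the value of Pdgfa, Pdgfc and Pdgfd and also of Pdgfra, which was higher in both auranofin libraries.

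The latent ligands Pdgfc and Pdgfd were lower by smaller amounts. Pdgfc had 11.6 and 12.4 FPKM with vehicle and 10.4 FPKM in each auranofin library, a log2 fold change of -0.19 (SE 0.049, 95% interval -0.31 to -0.071, limma adjusted p = 0.127). Its groups did not overlap. Pdgfd had 7.63 and 7.91 FPKM with vehicle, compared with 7.13 and 6.47 FPKM with auranofin, a log2 fold change of -0.17 (SE 0.06, 95% interval -0.32 to -0.021, limma adjusted p = 0.229). Its groups did not overlap either, but the auranofin libraries lay further apart than the vehicle ones; Pdgfd also rested on the fewest fragments of the family, an estimated 381.5 to 466.5 per library.

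Pdgfb, the B chain that binds both receptors, had 11.6 FPKM in both vehicle libraries and 12.1 and 11.0 FPKM with auranofin, so the auranofin libraries fell on either side of the vehicle ones. This gave a log2 fold change of -0.0026 with a 95% interval of -0.14 to 0.13 (limma adjusted p = 0.988). As a result, the ligand sum was 61.7 and 59.5 FPKM with vehicle against 53.8 and 51.5 FPKM with auranofin, and the share of Pdgfb in it was 18.7% and 19.5% against 22.5% and 21.4%. These sums and shares are descriptions and were not tested.

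The receptors differed little between the treatments. Pdgfrb, on chromosome 18 of mm10 from 61045127 to 61085067, had 50.6 and 51.5 FPKM with vehicle, compared with 47.7 and 51.1 FPKM with auranofin, and the groups overlapped. Its log2 fold change was -0.048 with a 95% interval of -0.16 to 0.063 (limma adjusted p = 0.630). Pdgfra had 20.2 and 19.4 FPKM with vehicle, compared with 20.5 and 21.7 FPKM with auranofin, so both auranofin libraries were higher, by less than 1 FPKM between the nearest libraries. For Pdgfra the log2 fold change was 0.088 with a 95% interval of -0.027 to 0.20 (limma adjusted p = 0.393). The receptor sum was 70.8 and 70.9 FPKM with vehicle against 68.2 and 72.8 FPKM with auranofin, and the ratio of ligand to receptor transcripts was 0.872 and 0.839 against 0.790 and 0.707.

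**Figure D2:**
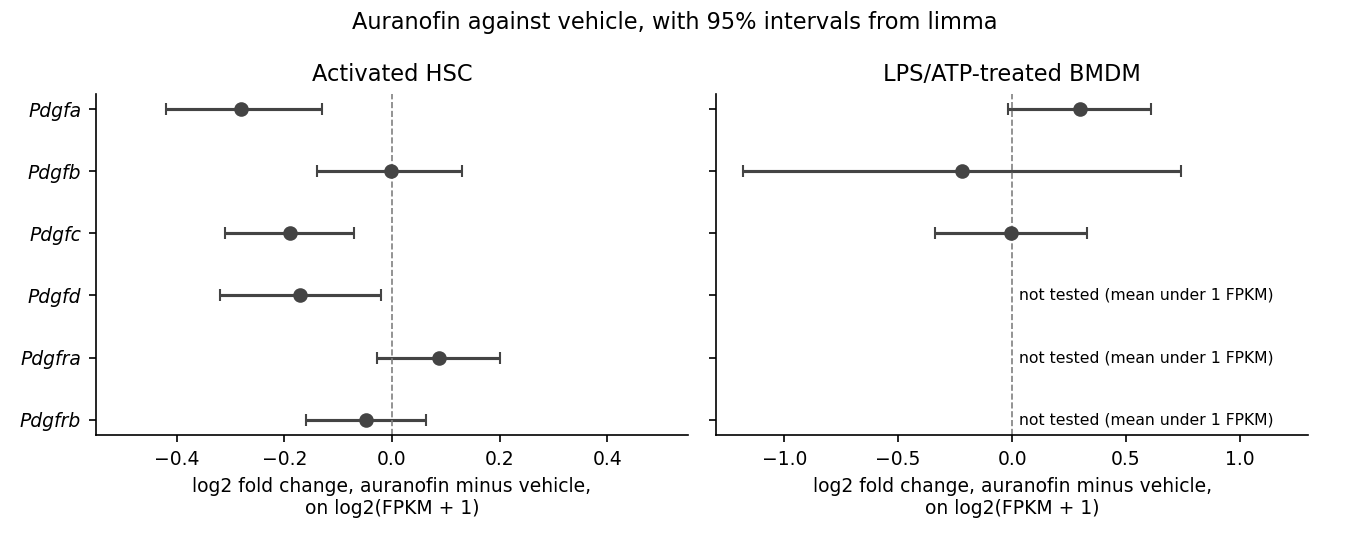
Log2 fold change of auranofin against vehicle on log2(FPKM + 1) with its 95% interval from limma, in HSC (left) and BMDM (right, wider axis). In HSC the intervals of Pdgfa, Pdgfc and Pdgfd lie below 0, although no adjusted p was under 0.05, and the intervals of Pdgfb, Pdgfra and Pdgfrb include 0; in BMDM every interval includes 0.

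Cell type markers also differed between the HSC libraries, where 2.33% of all genes were called. Of 14 stellate cell markers tested, 1 was lower at an adjusted p under 0.05 and none higher, while 10 had negative and 4 positive log2 fold changes. The sum of the list was 4694 and 4764 FPKM with vehicle against 4130 and 4189 FPKM with auranofin. The marker called was Acta2, the smooth muscle actin of myofibroblasts, at 956, 965, 743 and 737 FPKM (log2 fold change -0.38, limma adjusted p = 0.00719). Of 6 smooth muscle and portal fibroblast markers, 2 were lower, Myh11 (limma adjusted p = 0.0116) and Cnn1 (0.0361), and all 6 had negative log2 fold changes. Macrophage markers had 1 gene higher, Clec4f, and 1 lower, Mrc1, with an overlapping sum of 9367 and 9417 against 9384 and 9324 FPKM. Endothelial markers had 2 lower, Clec4g and Stab2, with a sum of 374 and 349 against 378 and 353 FPKM. The part of these markers in the ligand values was not tested, and in such bulk samples fewer cells of a type cannot be told apart from less RNA per cell.

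Pathway genes around the family were followed in HSC through lists written by hand from textbook knowledge, with earlier results of these data known. The values below stand beside those over all 12149 genes, of which 283 (2.33%) were called, 132 of them downward; the median of all log2 fold changes was 0, and 47.8% were negative. Of 11 genes for ligand processing and capture tested (12 listed), 1 fell, none rose, and the median of the log2 fold changes was -0.08. The gene was Plau, urokinase, a protease known to activate the D chain, at 154 and 153 FPKM with vehicle, compared with 126 and 132 FPKM with auranofin (log2 fold change -0.25, limma adjusted p = 0.0353). Of 34 genes of receptor-proximal signalling none passed in either direction, with a median of 0.01; Akt1, a kinase downstream of the receptors and the highest of the list, had 145, 139, 149 and 145 FPKM. Of 18 attenuators of receptor signalling none passed, with a median of -0.03. The highest of them was Ptpn1, a phosphatase that acts on receptor tyrosine kinases, at 42.5 and 42.4 FPKM with vehicle, compared with 48.9 and 47.8 FPKM with auranofin (log2 fold change 0.19, limma adjusted p = 0.0640).

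Among genes that PDGF is known to induce early in fibroblasts, 2 of 19 passed the test. Of the 19 tested (21 listed, Fosb and Egr3 being under 1 FPKM), 2 fell at an adjusted p under 0.05 and none rose, where 2.33% of all genes were called in either direction. The 2 became 4 without vehicle replicate 2, 1 without auranofin replicate 2, and 0 without a filter on low values or with eBayes without trend. Whether called or not, 18 had a negative log2 fold change, and the median was -0.15. In 14 of the 19 (73.7%), both auranofin libraries lay below both vehicle libraries, where 23.9% of all genes did. Because the list was chosen with earlier results of these data known, this share is a description and not a test. Ccl2, a chemokine that draws monocytes, fell from 198 and 189 to 139 and 149 FPKM (log2 fold change -0.42, limma adjusted p = 0.0149). Odc1, the first enzyme of polyamine synthesis, fell from 74.8 and 74.7 to 63.1 and 60.5 FPKM (log2 fold change -0.27, limma adjusted p = 0.0269). Both genes are also induced by many other stimuli, and the list shares these libraries with the marker genes above.

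Related growth factors and their receptors, the VEGF family and the ligands of the kinases nearest to the PDGF receptors, were followed in the same way. Of 8 related ligands 2 fell and none rose, beside 2.33% of all genes called, with a median log2 fold change of 0.02. Vegfd, whose protein has the same cystine-knot fold as the PDGF chains, went from 29.2 and 29.0 to 21.1 and 19.4 FPKM (log2 fold change -0.51, limma adjusted p = 0.0113). Csf1, the gene of M-CSF, went from 219 and 208 to 178 and 171 FPKM (log2 fold change -0.29, limma adjusted p = 0.0316). Of 5 related receptors tested none passed, with a median of 0.03; Csf1r, the receptor of M-CSF and a macrophage gene, had 188, 194, 186 and 181 FPKM. Of the 5 pathway genes called, Plau, Odc1 and Csf1 had adjusted p-values above 0.05 when either auranofin library was left out of the limma fit, and all 5 did when genes of low level were kept in it (0.0608 for Vegfd, 0.0792 for Ccl2, 0.0809 for Odc1, 0.109 for Plau and 0.114 for Csf1). With eBayes without trend only Vegfd among the 5 stayed under 0.05, and none of the 5 reached a change of 1.5-fold.

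**Figure D3:**
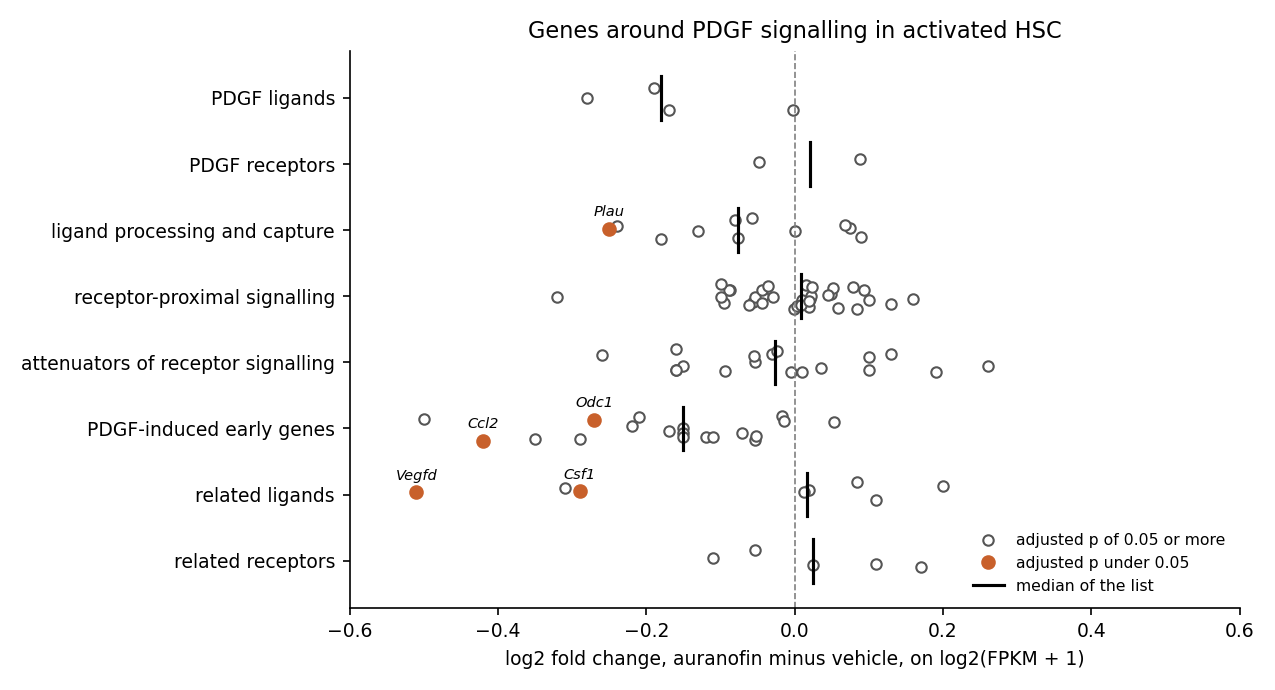
Log2 fold change of auranofin against vehicle in HSC for the genes tested in each list; filled points have a limma adjusted p under 0.05 and are named, and bars are list medians. The 5 named genes all lie left of 0, and the early genes lie left of 0 except 1.

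In BMDM no member passed the test, which had little power there. Of 200 genes given 2-fold changes in values simulated from each table, the fit called 0 in BMDM and 182 in HSC. The simulation shuffled the spreads among genes, gave both groups the same spread and drew each gene independently. It changed no gene as low as Pdgfc. The HSC count holds for 2-fold changes only, and the HSC members differed by less. The lack of calls in BMDM cannot decide whether members changed 2-fold. Of 9232 genes tested with limma, 1 (0.0108%) had an adjusted p under 0.05, 49 had an unadjusted p under 0.05, and 14 (0.152%) were at least 1.5-fold different with an unadjusted p under 0.05. Both auranofin libraries lay below both vehicle libraries in 12.6% of genes and above them in 26.3%, and the median log2 fold change of all genes was 0.09. Beside these counts, the auranofin libraries stood apart from each other. Among the 4245 genes with the higher mean levels, 383 differed at least 2-fold between them, against 14 between the vehicle libraries.

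Pdgfa had 6.23 and 5.94 FPKM with vehicle, compared with 7.98 and 7.45 FPKM with auranofin. Both auranofin libraries were higher, and the mean was 6.09 ± 0.205 FPKM (SD, n = 2) against 7.71 ± 0.372 FPKM (SD, n = 2). This was a log2 fold change of 0.30 (SE 0.11, 95% interval -0.018 to 0.61, limma adjusted p = 0.721). Pdgfb had 10.3 and 10.2 FPKM with vehicle, compared with 5.99 and 12.3 FPKM with auranofin, so that one auranofin library was the lowest of the 4 and the other the highest. Its log2 fold change was -0.22 with a 95% interval of -1.18 to 0.74 (limma adjusted p = 0.782), and it turned to 0.25 without auranofin replicate 1. In auranofin replicate 1, Pdgfb was 36.8% of the ligand sum and lay behind Pdgfa, whereas in the other 3 libraries it was 54.4% to 55.8%. Without auranofin replicate 2, Pdgfa (0.34, limma adjusted p = 0.00968) and Pdgfb (-0.69, limma adjusted p = 0.000723) were called, but so were 6051 of the 9232 genes.

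Pdgfc had 2.36 and 2.30 FPKM with vehicle, compared with 2.33 and 2.31 FPKM with auranofin, all within 0.1 FPKM. Its log2 fold change was -0.0044 with a 95% interval of -0.34 to 0.33 (limma adjusted p = 0.986). Pdgfra, Pdgfrb and Pdgfd had means under 1 FPKM and were not tested. Pdgfrb was at 0.0680 FPKM in auranofin replicate 1 and between 0.313 and 0.359 FPKM in the other 3 libraries, so the library that was low for Pdgfb was also the one low for Pdgfrb.

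**Figure D4:**
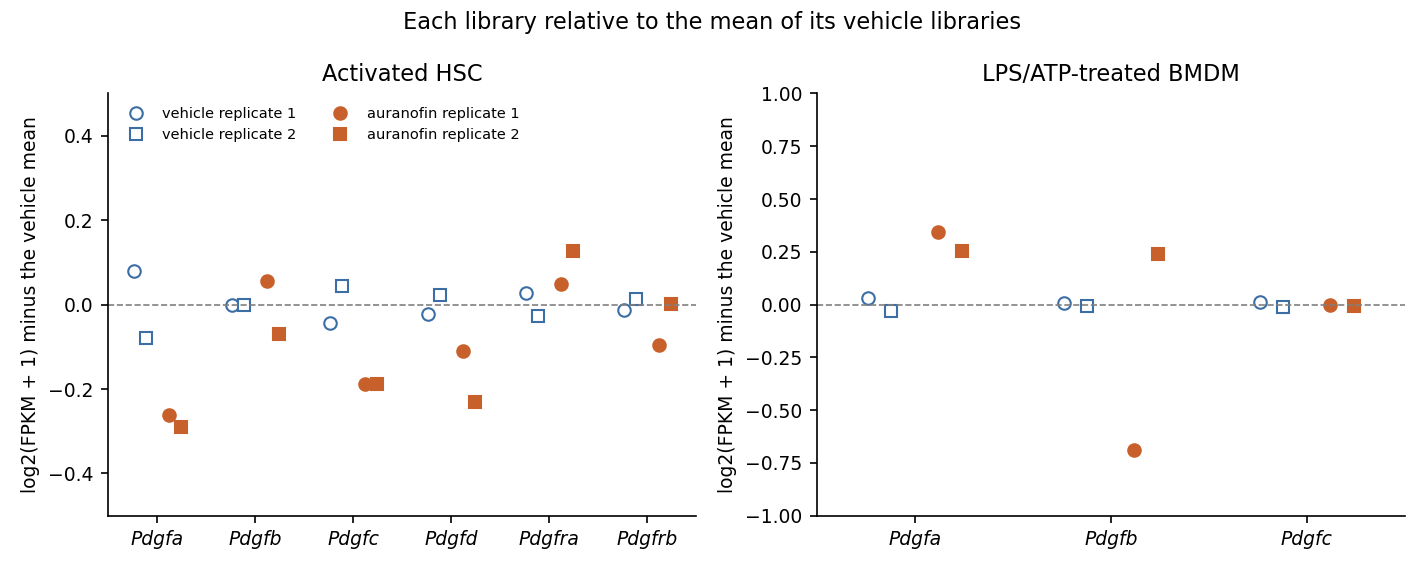
Log2(FPKM + 1) of each library minus the mean of its vehicle libraries, for the members tested in HSC (left) and BMDM (right, wider axis); open symbols are vehicle, filled symbols auranofin. In HSC the auranofin replicates lie close together below 0 for Pdgfa and Pdgfc, whereas in BMDM they lie on opposite sides of 0 for Pdgfb.

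No gene of the pathway lists was called in BMDM, where the test had little power. Without auranofin replicate 2, 5 genes of ligand processing and capture, 22 of receptor-proximal signalling, 13 attenuators, 14 early genes, 4 related ligands and 2 related receptors were called, as were 6051 of all 9232 genes. In the fit of all 4 libraries, the list medians were -0.14 for ligand processing and capture (7 genes tested), 0.04 for receptor-proximal signalling (31), 0.12 for attenuators (16), 0.14 for early genes (16), 0.25 for related ligands (6) and -0.3 for related receptors (2), beside 0.09 for all genes. In the highest gene of each of the 6 lists, auranofin replicate 1 was the lowest or the highest library. Plau had 64.8, 58.1, 126 and 60.4 FPKM and Stat3, a transcription factor that tyrosine kinases activate, 140, 145, 69.7 and 143 FPKM, vehicle libraries first. Socs3, a feedback inhibitor of cytokine signalling, had 460, 464, 245 and 492 FPKM and Ccl2 2285, 2331, 1484 and 2426 FPKM. Csf1 had 76.6, 77.1, 63.5 and 76.0 FPKM and Csf1r 163, 168, 180 and 158 FPKM, a narrower range. In Plau, Stat3, Socs3, Ccl2 and, by a smaller amount, Csf1, auranofin replicate 1 lay apart from the other 3 libraries.

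The genes whose pattern over the 8 libraries was most like each member were found by the root mean square difference of log2(FPKM + 1) after each gene's own mean was subtracted, among 12260 genes. This is a description in which the difference between the 2 cell types, whose tables were normalized separately, takes part. Closest to Pdgfrb were Cyp1b1, Pxdn and Mmp3 (0.089 to 0.104), and closest to Pdgfra were Antxr1, Cttn and Peg3 (0.053 to 0.058). Closest to Pdgfd were Tmem47, Pkia and Arxes2 (0.022 to 0.041), and to Pdgfc Prox1, Cobl and Cap2 (0.034 to 0.043). Prox1, Cobl and Cap2 had means of 2.81, 2.80 and 2.69 FPKM in HSC. Their BMDM means were only 0.0158, 0.00323 and 0.0145 FPKM, whereas Pdgfc had 2.36 and 2.30 FPKM in the BMDM vehicle libraries. The 1 added before the logarithm shrinks differences between low values, so genes with unlike fold differences between the cell types can lie close. Pdgfa had Fen1, Snx7 and Lsm2 (0.089 to 0.092) and Pdgfb had Rab3ip, Nkiras2 and Psat1 (0.071 to 0.078). No gene was close to 2 members at once by this rule.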

How the data were processed

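RNA-seq libraries of activated HSC and of LPS/ATP-treated BMDM, each with 2 vehicle and 2 auranofin replicates, were analysed from the tables that the authors deposited, which hold FPKM per gene. The submitters' processing notes name CASAVA, FastQC 0.11.7, Trimmomatic 0.38, HISAT2 2.1.0 and StringTie 1.3.4d, with mm10, and the tables give RefSeq transcripts; reads came from a stranded mRNA kit. The deposited FPKM hide the counts, so depth was estimated from the spacing that single fragments leave among low values, at 29800000 to 39000000 fragments per HSC library and 27800000 to 34800000 per BMDM library, with 53.5% to 60.2% of these values within 0.1 fragments of a whole number (20.0% if spread evenly). These depths cover counting error only.

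Groups and replicate numbers came from the labels. Each table was fitted alone with limma 3.58.1 in R 4.3.3 (eBayes with trend, two-sided) on log2(FPKM + 1), over genes whose mean reached 1 FPKM, with Benjamini-Hochberg adjustment over all genes tested and a threshold of 0.05. Such fold changes understate those of low genes. The members, lists and tests were chosen with earlier results of these data known. The genes named are the 6 members, each pathway list's genes with an adjusted p under 0.05 (otherwise its highest gene), and the 3 genes most like each member; marker genes are named from the marker lists. No replicate was a copy of another. Alternatives were another pseudocount, other filters, quantile normalization, median centring, eBayes without trend, a replicate block, a call at 1.5-fold and an unadjusted p under 0.05, and each library left out. Promoters were read and figures drawn in Python 3.11.15 with pandas 2.3.3 and matplotlib 3.10.9.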

Additional observations from a re-analysis of the deposited data

Results flagged for a closer look

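Pdgfa was picked out because its auranofin libraries lay on opposite sides of the vehicle libraries in the 2 cell types. Its log2 fold change was -0.28 in HSC, where both auranofin libraries were below both vehicle libraries, and 0.30 in BMDM, where both were above. Whether the cell types differ was not tested, since dose, time and normalization differ between the tables. Of 8963 genes tested in both, 603 (6.73%) separated in opposite directions, and 400 (4.46%) did so in the direction of Pdgfa.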

How the results depend on the processing

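Of the alternatives for the members, 69 values in HSC and 31 in BMDM kept their direction and side of the threshold. The others changed direction (2 in each table) or crossed the threshold, all with a library left out. The call at 1.5-fold reused the main fit, so direction could not change there. In HSC, 283 genes were called, against 49 without a filter on low values, 129 with eBayes without trend, 70 at 1.5-fold and an unadjusted p under 0.05, and 179 to 517 with each library left out; members called ranged from 0 to 1, the call being Pdgfa without vehicle replicate 2 (its log2 fold change ranged from -0.36 to -0.2). Pdgfb (-0.064 to 0.059, the latter without auranofin replicate 2) and Pdgfrb (-0.1 to 0.0018, the latter without auranofin replicate 1) changed sign. In BMDM, 1 gene was called, against 0 without a filter, 0 with quantile normalization, 2 with eBayes without trend, 14 at 1.5-fold and an unadjusted p under 0.05, and 1 to 6051 with each library left out. With each library left out, the log2 fold change of Pdgfa in BMDM ranged from 0.25 to 0.34. It was lower with quantile normalization (0.18) and with median centring (0.21). Among the fits with a library left out, Pdgfb (-0.69 to 0.25) and Pdgfc (-0.018 to 0.0088) changed sign, at 0.25 without auranofin replicate 1 and 0.0088 without vehicle replicate 1. Pdgfc was at -0.13 with quantile normalization and -0.10 with median centring. A group left with 1 library is assumed to vary like the other. Nothing states whether same-numbered libraries belong together. Their deviations correlated at 0.11 in HSC and -0.06 in BMDM, which with 2 libraries per group cannot decide this. With a replicate block, 282 genes in HSC and 1 in BMDM were called, with 0 members in each. The cause of these changes was not tested, and 2 libraries per group limit every comparison.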
